A study of Mus musculus with 15 samples.

Results

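Hepatic allografts taken at postoperative day 8 (POD8) were compared with liver controls, 3 arrays against 3 of the 15 arrays in the series. Livers of male B10.BR mice (BR, H-2k) were placed orthotopically, with cuffs on the vessels, into male B10.D2 recipients (D2, H-2d), so donor and recipient differed in their major histocompatibility complex (MHC) haplotype, and no immunosuppressive drug is described. The control arrays carry labels of normal liver, while the text of the study speaks of isografts and its legends of syngeneic grafts, so they are called controls here, their strain is not given, and graft surgery and allogeneic difference cannot be told apart if they came from unoperated livers. Age is not given for either group, and the labels number the samples 1 to 3 without stating that each came from its own mouse, so the P-values below measure the spread between these samples. Each sample was total RNA of frozen liver, labelled with Cy3 on a single-colour Agilent array, and all values below are log2 normalized intensities of 1 probe, the brightest of its gene. Levels of different probes are not on one scale and are not set against each other. Where the levels of a list are summed, its brightest probes weigh most. The members were the genes marked well above background on all 3 arrays of at least 1 group, 13440 of 18212 named genes tested, of which 11795 passed in both groups, 1617 in the allografts alone and 28 in the controls alone.

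A liver transplanted across an MHC difference is attacked by T cells of the recipient. CD8 T cells recognize foreign MHC class I and kill with granzymes and perforin or through Fas ligand, and they secrete interferon-gamma. Interferon-gamma acts on hepatocytes, endothelium and macrophages of the graft, where it induces GTPases, chemokines and antigen presentation genes. In mice such grafts can be accepted after an episode of rejection, and inhibitory receptors and their ligands are studied in them for that reason.

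Among the 13440 genes, 846 were higher and 321 lower in the POD8 allografts by limma with a Benjamini-Hochberg adjusted P-value under 0.05 over all 41157 probes tested. That is 8.68% of the genes called, 6.29% higher and 2.39% lower, against 7.06%, 4.96% and 2.1% of all 18212 named genes and 5.44%, 3.74% and 1.7% of all probes. Of the 11795 genes above background in both groups, which the filter did not push in either direction, 584 were higher and 311 lower. The upward changes were also the larger ones, with 431 of the 846 higher genes above 4-fold and 59 above 16-fold, while 13 of the 321 lower genes were above 4-fold and the largest fall was that of Gm6460 (-3.29). The median difference was 2.03 over the higher genes, -0.95 over the lower genes and -0.06 over all 13440. Without overlap between the 2 groups of 3 arrays were 5483 of the 13440 genes, against a background of 35.9% of all named genes tested (15.5% with the allografts above and 20.4% with them below). The plot of differences against control level shows the higher genes reaching from the dimmest to bright levels.

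**Figure D1:**
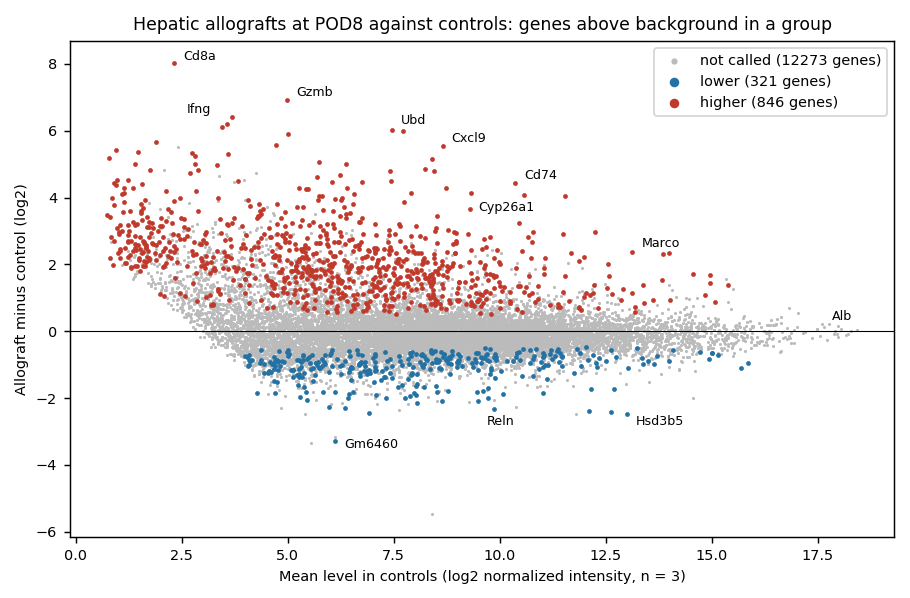
Each point is 1 of 13440 genes, with its mean level in the 3 controls (log2 normalized intensity) on the x axis and its allograft minus control difference (log2) on the y axis, coloured by limma's call. The 846 higher genes reach a difference of 8.02 (Cd8a), while the 321 lower genes stop at -3.29 (Gm6460), and Alb lies at 0 on the right.

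The arrays of the 2 groups were not equally bright, which bears on every count. Before normalization, 75% of probes lay under a signal of 365 to 426 in the allografts and of 87.7 to 216 in the controls, and 61.4% to 66.3% against 52.5% to 56.9% of probes were well above background. When each array was scaled to its 75th percentile in place of quantile normalization, 1364 genes were higher and 1024 lower, and the median of all probes moved from -0.08 to -0.46. The share of calls that were higher was then 57.1%, against 72.5% with quantile normalization, and 788 of the 846 higher and 298 of the 321 lower genes were called again. Allografts 1 and 2 and controls 1 and 2 were on 1 slide, with the remaining allograft and control on a slide each. Within the shared slide, 2 arrays against 2 with no test, the medians of the 846 higher and 321 lower genes were 2.10 and -1.0, although these genes were called on arrays that include those 4. With slide as a fixed block limma called 0 genes after adjustment, against 1979 higher and 2385 lower at an unadjusted P-value under 0.05 (2116 and 2201 without the block). Control 1 was the dimmest array. Leaving out allograft 1 left 175 higher and 11 lower genes, allograft 2 left 187 and 16, allograft 3 left 292 and 55, and control 2 left 612 and 99. Without control 1 the counts were 1047 and 362, and without control 3 they were 803 and 446. The counts of calls in a list also moved, and their range over the 6 fits that each leave out 1 array is given beside most list counts below. With quantile normalization over all 6 arrays, each list count stands against 6.29% higher and 2.39% lower over all genes described. Counts at an unadjusted P-value under 0.05 stand against 2116 higher and 2201 lower of the 13440. Counts under 75th percentile scaling stand against 1364 higher and 1024 lower of the 13440, with a median of -0.19. Counts with 1 array left out stand against the counts of all genes given above for that fit. The pairwise correlation over probes was 0.991 to 0.993 among the allografts, 0.960 to 0.978 among the controls and 0.949 to 0.974 between the groups.

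The largest difference in the comparison was that of Cd8a, the alpha chain of the CD8 coreceptor. Its probe read 10.27, 10.49 and 10.24 on the 3 allograft arrays and 2.25, 2.36 and 2.35 on the 3 control arrays. None of the control arrays was above background for Cd8a and the allografts lay within a narrow range, so the difference was at least 107-fold (8.02 ± 0.11 SE on the log2 scale, adjusted P = 0.000156), and all 3 probes of the gene were called. Gzmb, which encodes granzyme B, read 11.69, 12.08 and 11.95 in the allografts and 4.55, 4.53 and 5.87 in the controls, a 121-fold difference (adjusted P = 0.00276). Gzma, for granzyme A, read 10.11, 10.56 and 10.23 against 4.55, 4.84 and 4.77, a 48-fold difference (adjusted P = 0.000808). Both granzyme genes were above background on all 3 controls, and their groups were separated by over 5 log2 units. Ifng, the gene of interferon-gamma itself, read 9.66, 9.96 and 9.72 in the allografts and 2.78, 3.92 and 4.0 in the controls (difference 6.21 ± 0.36 SE, adjusted P = 0.00273), with 2 of the 3 controls above background. Ifng did not overlap between the groups either, and 1 control stood over 1 log2 unit below the others. Perforin, Prf1, rose at least 21.4-fold and Fas ligand, Fasl, at least 6.6-fold.

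All 16 cytotoxic lymphocyte genes of the list that were above background rose (16 higher and 0 lower, with 12 to 16 higher when 1 array was left out), with a median difference of 4.86 against -0.06 over all genes. With normexp on median signals 15 of the 16 were higher and the median was 2.28, against -0.04 over all genes. Besides the killing genes the 16 included Nkg7, a granule membrane protein of killer cells (5.01), and Cst7, the cystatin that restrains granzyme-activating cathepsins (4.97). Ccl5 (5.15) and Tbx21, the transcription factor T-bet of type 1 effector cells (3.21), were also among them. Xcl1, the chemokine that draws cross-presenting dendritic cells, rose at least 14.5-fold, with no control above background. The smallest of the 16 differences was that of Ctsw, a cathepsin of killer cells, at 2.84. The summed linear level of the cytotoxic list was 22139 to 27477 in the allografts against 505 to 809 in the controls. In tissue RNA a higher number of such cells and more RNA per cell cannot be told apart.

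The promoters of 4 of the 12 largest upward calls are shown because Ifng and genes of the interferon-gamma response were among the largest calls, and because 2 short motifs bound by interferon-activated factors could be looked for in them. The motifs were the gamma-activated site TTCNNNGAA and the interferon-stimulated response element, GAAA and GAAA with any 2 bases between, each searched on both strands of 300 bases per promoter in a RefSeq table of GRCm38.p6, from 250 bases before to 50 bases after the transcription start. The 250 bases before the start follow, 5′ to 3′ on the gene's strand, with matches in capitals. Tgtp1 lies on the minus strand (chr11:48992247-48992496), Gzma on the minus strand (chr13:113100982-113101231), Ifng on the plus strand (chr10:118440796-118441045) and Cxcl9 on the minus strand (chr5:92328080-92328329).
Tgtp1: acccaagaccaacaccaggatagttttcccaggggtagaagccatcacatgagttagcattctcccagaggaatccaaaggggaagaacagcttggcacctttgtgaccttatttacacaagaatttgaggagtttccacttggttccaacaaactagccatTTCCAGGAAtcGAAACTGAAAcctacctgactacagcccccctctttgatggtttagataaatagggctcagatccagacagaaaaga
Gzma: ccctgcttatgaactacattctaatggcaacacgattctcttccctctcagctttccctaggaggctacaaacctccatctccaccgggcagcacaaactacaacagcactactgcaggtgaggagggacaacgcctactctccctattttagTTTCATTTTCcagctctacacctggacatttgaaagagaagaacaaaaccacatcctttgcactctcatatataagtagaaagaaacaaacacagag
Ifng: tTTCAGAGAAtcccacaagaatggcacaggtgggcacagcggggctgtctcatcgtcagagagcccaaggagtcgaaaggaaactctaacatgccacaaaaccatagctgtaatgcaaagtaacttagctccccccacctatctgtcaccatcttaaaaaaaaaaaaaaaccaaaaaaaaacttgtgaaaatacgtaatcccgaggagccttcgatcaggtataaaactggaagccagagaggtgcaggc
Cxcl9: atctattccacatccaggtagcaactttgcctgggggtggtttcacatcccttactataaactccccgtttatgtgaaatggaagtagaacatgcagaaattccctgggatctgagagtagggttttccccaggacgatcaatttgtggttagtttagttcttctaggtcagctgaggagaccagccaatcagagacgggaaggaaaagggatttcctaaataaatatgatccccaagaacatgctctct

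With positions counted from the transcription start, Tgtp1 held a gamma-activated site at -88 and a response element at -77. Gzma held a response element at -97, Ifng a gamma-activated site at -249, and the Cxcl9 window held neither spelling. Of the 12 genes called higher with the largest difference, 11 had a promoter in the table and 5 of these held either motif, against 4 of 8 for the 12 called lower with the largest difference and 12.9% of all 27025 genes in the table. A gamma-activated site stood in 8.3% and a response element in 3.44% of the 32851 promoters. These matches describe letters in a window and no binding was measured.

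T cell genes rose in 12 of 16 cases (7 to 14 when 1 array was left out), with a median difference of 3.09. With normexp on median signals 13 of the 16 were higher and the median was 1.63. Chains of the T cell receptor complex gave unequal differences. Cd3d read 10.30, 10.53 and 10.06 in the allografts and 5.54, 6.21 and 5.31 in the controls (difference 4.61, adjusted P = 0.00286). Cd3g read 8.85, 9.11 and 8.74 against 2.33, 4.39 and 4.04 (difference 5.31, adjusted P = 0.0128, 2 controls above background). The single probe of Cd3e, another chain of the same complex, read 7.05, 7.18 and 7.25 against 6.31, 6.23 and 6.77, a difference of 0.72 that did not pass (adjusted P = 0.0866) although all 3 allografts lay above the controls. Cd247, the zeta chain, rose at least 15.4-fold, and Lck, the kinase carried by CD4 and CD8, rose 19.6-fold. The costimulatory receptor Cd27 rose by 5.32 on the log2 scale, and Cxcr6, a chemokine receptor of liver-homing T cells, by 3.94. Zap70, the next kinase of the pathway, read 9.36, 9.39 and 9.19 against 9.17, 9.49 and 9.18, with overlapping groups (adjusted P = 0.9). Cd4, the coreceptor of helper T cells and also of some macrophages, read 4.38, 4.45 and 4.36 in the allografts and 4.74, 4.76 and 4.86 in the controls. Its 3 allografts lay slightly below the controls, with a difference of -0.39 (adjusted P = 0.0849). Cd96, an adhesion receptor of T and natural killer cells, read 6.34, 6.49 and 6.31 against 0.94, 0.91 and 1.0 (difference 5.43, adjusted P = 0.000344). None of these controls was above background, so the rise of Cd96 was at least 6.89-fold.

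**Figure D2:**
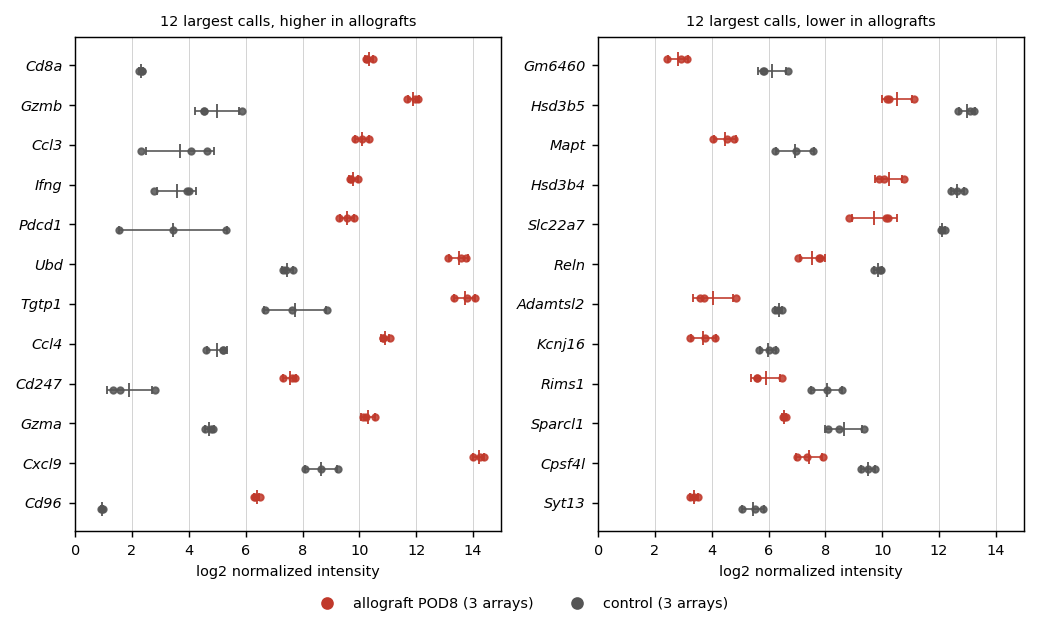
Level of the 12 genes called higher (left) and the 12 called lower (right) with the largest difference, with 1 point per array, in log2 normalized intensity; vertical ticks are group means and bars the SD of 3 arrays. The 24 genes were picked among those whose groups do not overlap. The gap is widest for Cd8a, from 2.36 to 10.24, but none of the controls was above background for Cd8a, Cd247 or Cd96.

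Natural killer receptors rose in 6 of 7 genes (2 to 5 when 1 array was left out, median 3.00), and the summed linear level of the list was 182 to 297 in the allografts against 34.6 to 53.4 in the controls. None of the 6 was above background on any control array. They were described through the allografts alone, and their differences rest on control readings that are not measured levels. With normexp on median signals 4 of the 7 were higher and the median was 0.51. Klrc1, an NKG2 receptor shared by natural killer cells and CD8 T cells, rose at least 3.01-fold and Klrg1, a receptor of late effector cells, at least 1.8-fold. Klrb1c (NK1.1) read 4.94, 5.42 and 4.74 against 4.07, 4.48 and 3.34 and did not pass (adjusted P = 0.161). Ncr1, which marks natural killer cells most specifically, was above background on 2 allograft arrays and on 0 control arrays, and was therefore not among the genes described.

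Inhibitory receptors and their ligands rose in 14 of 18 genes of the regulatory and inhibitory list (6 to 15 when 1 array was left out, median 3.13). With normexp on median signals 13 of the 18 were higher and the median was 0.93. Some of the genes, among them Pdcd1lg2, Btla and Ctla4, were not above background on any control, so their differences rest on control readings that are not measured levels. Pdcd1, the receptor PD-1, read 9.58, 9.81 and 9.30 in the allografts and 3.45, 1.55 and 5.32 in the controls. The controls were widely spread and 1 of them was above background, so the difference of 6.12 carried an SE of 0.96 (adjusted P = 0.032). Both of its ligands rose as well, Cd274 (PD-L1) by 4.25 on the log2 scale (adjusted P = 0.00689) and Pdcd1lg2 (PD-L2) at least 5.15-fold (adjusted P = 0.00273). Lag3 rose by 3.59, Havcr2 (TIM-3) by 3.66 and Btla at least 3.51-fold. Ctla4, which competes with CD28 for its ligands, rose at least 1.41-fold, and Il10 at least 2.87-fold. Foxp3, the defining factor of regulatory T cells, was below the detection mark throughout (3.14, 2.85 and 1.46 in the allografts and 1.30, 1.93 and 2.56 in the controls), so no level of it can be given. Tox, a factor of chronically stimulated T cells, differed by 1.35 and Tgfb1 by 1.0, neither past the threshold (adjusted P = 0.0522 and 0.141).

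Interferon-gamma induced GTPases, which attack the membranes of intracellular pathogens, rose in 15 of 16 genes (8 to 16 when 1 array was left out) with a median of 3.58. Tgtp1, whose probe also serves for its near copy Tgtp2 and was counted once, read 13.77, 14.05 and 13.32 in the allografts and 6.69, 7.62 and 8.87 in the controls, a 63.5-fold difference (adjusted P = 0.00998). The guanylate-binding protein Gbp5 read 10.47, 10.63 and 10.42 against 6.06, 5.99 and 6.13, and its difference of 4.45 had the smallest error of the family (SE 0.11, adjusted P = 0.000547). The groups did not overlap for any of the 15, and the smallest rise was that of Irgm2 (2.11). The immunity-related GTPases Igtp and Iigp1 rose as well, Igtp from 11.54 ± 0.53 to 15.60 ± 0.10 and Iigp1 from 13.98 ± 0.36 to 16.32 ± 0.04 (mean ± SD, n = 3). The 1 gene not called was Gm12250, which was above background on 1 control and read 6.15, 6.83 and 6.31 against 1.67, 1.68 and 7.37 (adjusted P = 0.386).

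Of the regulators and effectors of the same response, 9 of 12 rose (7 to 10 when 1 array was left out, median 3.76). Irf1, a transcription factor of the interferon response, rose 4.65-fold (adjusted P = 0.03). Larger rises were seen for Socs1, the feedback inhibitor of the receptor, at 21.9-fold, and Ciita, the master activator of MHC class II, at 19-fold. Ubd, the ubiquitin-like modifier FAT10, read 13.13, 13.76 and 13.58 in the allografts and 7.30, 7.43 and 7.67 in the controls, a 65.1-fold difference (adjusted P = 0.000856). The T cell chemokine Cxcl9 read 14.23, 14.37 and 13.99 against 8.10, 9.23 and 8.64, a 46.6-fold difference (adjusted P = 0.00254), and its relative Cxcl10 rose 27.6-fold. Ubd and Cxcl9 were above background on every array, and the lowest allograft exceeded the highest control by over 4 log2 units for both. Ido1, the tryptophan-degrading enzyme, read 5.68, 10.23 and 7.86 in the allografts and 1.07, 2.45 and 3.74 in the controls. Its groups did not overlap and 1 control was above background, but the allografts themselves spread over more than 4 log2 units, and the difference of 5.50 missed the threshold (SE 1.32, adjusted P = 0.0846). Nos2, the inducible nitric oxide synthase, was not above background on any array.

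Antigen presentation genes rose in both MHC classes. For class I, 13 of 16 genes were higher (1 to 12 when 1 array was left out) with a median of 1.33, and 8 of 16 were higher when the arrays were scaled to the 75th percentile (median 0.85). The inducible proteasome subunits Psmb9 and Psmb8, which trim peptides for class I, rose 7.49-fold and 5.02-fold. The peptide transporter genes Tap1 and Tap2 rose 6.31-fold and 5.09-fold. B2m, the light chain of class I, read 15.61, 15.68 and 15.71 against 14.32, 14.62 and 15.04, above every control but short of the threshold (difference 1.0, adjusted P = 0.0566). For class II, 7 of 9 genes were higher (4 to 7 when 1 array was left out) with a median of 3.67. H2-Aa, a class II alpha chain, read 13.33, 13.45 and 12.98 in the allografts and 7.47, 9.12 and 8.80 in the controls, a 27.7-fold difference (adjusted P = 0.00968). Cd74, the invariant chain that escorts class II, read 14.81, 15.04 and 14.54 against 9.99, 10.68 and 10.41, a 21.6-fold difference (adjusted P = 0.0023). The peptide editor H2-DMb1 rose 12.7-fold and the cathepsin Ctss 7.87-fold. H2 genes vary between haplotypes, the graft holds cells of both, and how well each probe reads the H-2k and H-2d forms was not tested.

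Antiviral genes that respond mainly to type I interferon rose in 14 of 22 cases (1 to 14 when 1 array was left out), with a median of 1.62. The largest rises were those of Ifit2 (3.14) and Oasl2 (2.83), followed by the nucleic acid sensor Zbp1 (2.51). Isg15, a ubiquitin-like protein, rose by 2.06 and Irf7 by 1.58. Rsad2 (viperin) differed by 1.25 with overlapping groups (adjusted P = 0.205), and the sensor Ddx58 (RIG-I) by 0.36 (adjusted P = 0.492). Ifnb1, the gene of interferon-beta, was not above background on any array.

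**Figure D3:**
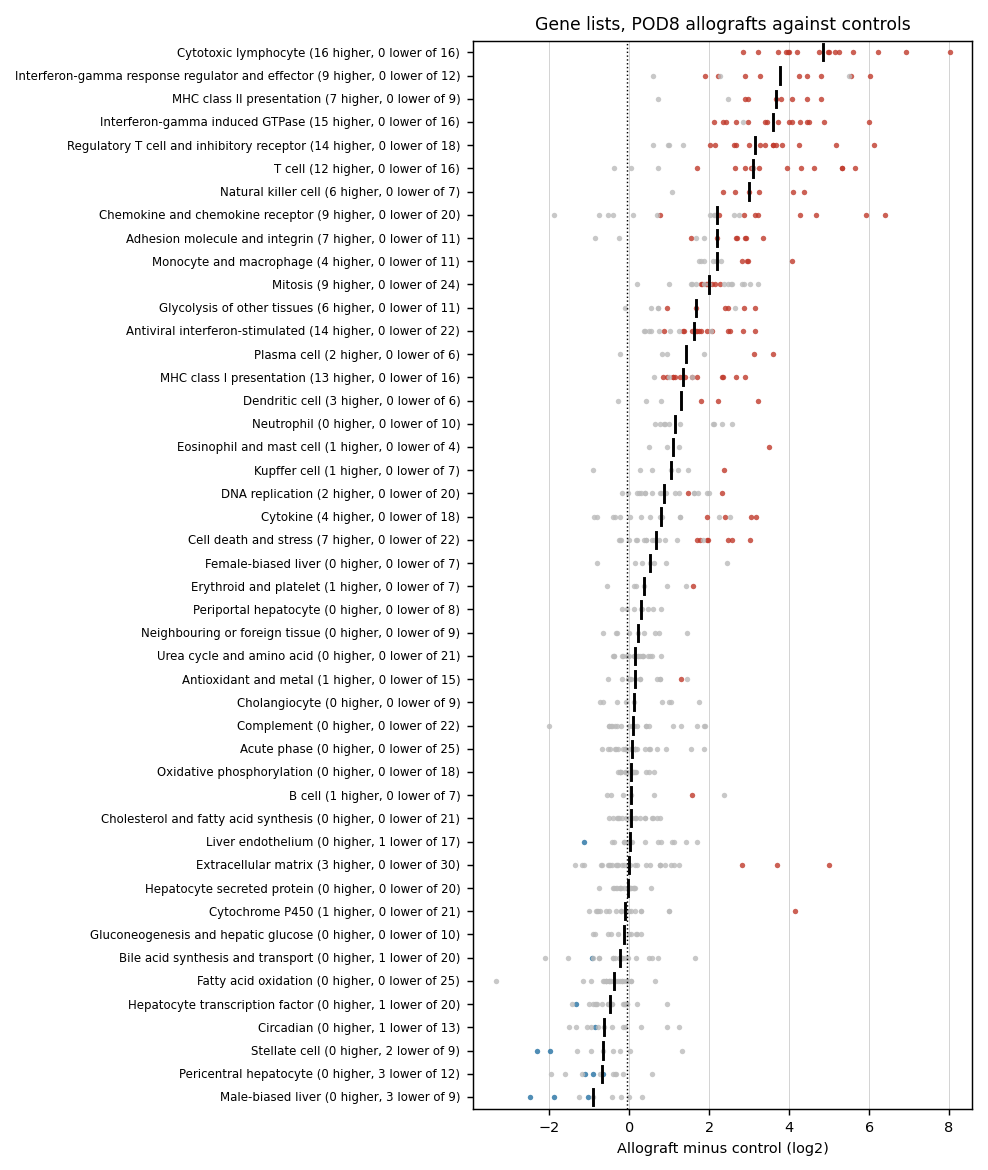
Allograft minus control difference (log2) of each described member of 46 gene lists, 1 point per gene, red where higher, blue where lower and grey where not called by limma; the black bar is the list median and the dotted line the median of all genes (-0.06). Cytotoxic, interferon-gamma and MHC class II lists lie at the top with medians above 3.5, secreted hepatocyte proteins lie at -0.02, fatty acid oxidation at -0.39 and hepatocyte transcription factors at -0.49, and the pericentral and male-biased lists are at the bottom with medians of -0.70 and -0.90.

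Chemokine genes rose in part. Ccl3, a chemokine of activated T cells and macrophages, read 9.84, 10.10 and 10.32 in the allografts and 2.33, 4.66 and 4.08 in the controls, 2 of which were above background (difference 6.40, adjusted P = 0.00991). Its neighbour Ccl4 read 10.82, 11.06 and 10.84 against 4.59, 5.19 and 5.21, a 60.2-fold difference (adjusted P = 0.000856). Allografts and controls were over 5 log2 units apart for both genes. The monocyte attractants Ccl8 and Ccl2 rose 25.5-fold and 9.33-fold, the eosinophil attractant Ccl24 rose 19.4-fold, and Cxcr3, the receptor of Cxcl9 and Cxcl10, rose 8.88-fold. In all 9 of 20 listed chemokines and receptors were higher (1 to 12 when 1 array was left out, median 2.20). The B cell attractant Cxcl13 read 4.97, 4.51 and 5.35 in the allografts and 5.49, 7.77 and 7.21 in the controls (adjusted P = 0.173), the neutrophil attractant Cxcl1 differed by -0.77 (adjusted P = 0.536) and the homeostatic Cxcl12 by -0.54 (adjusted P = 0.139).

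Cytokine genes other than Ifng rose in 4 of 18 cases (1 to 6 when 1 array was left out). They were Tnf (3.18), Ltb, the lymphotoxin chain of lymphocytes (3.04), Il1b (2.40) and Il21, a product of helper T cells (1.94, with no control above background). Il6 read 4.51, 4.48 and 5.39 in the allografts and 3.88, 5.28 and 6.34 in the controls, with overlapping groups, and no array detected Il17a. Adhesion molecules and integrins were higher in 7 of 11 genes (3 to 8 when 1 array was left out, median 2.19). Among them Itga4, the alpha chain of VLA-4, rose 10.1-fold and its endothelial ligand Vcam1 7.59-fold, while Icam1 differed by 1.68 (adjusted P = 0.0932) and Selp (P-selectin) by -0.26 (adjusted P = 0.281).

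Monocyte and macrophage genes rose in 4 of 11 cases (median 2.19). All 11 had allografts above every control, against 2613 of the 13440 genes described and 15.5% of all named genes tested. Itgax, the integrin CD11c, read 9.84, 10.00 and 9.74 in the allografts and 5.88, 5.74 and 5.77 in the controls, a 16.7-fold difference (adjusted P = 0.000808). Ly6c2, a marker of inflammatory monocytes, read 13.66, 13.85 and 13.76 against 10.59, 10.76 and 11.04, a 7.79-fold difference (adjusted P = 0.00225), and the monocyte receptor Ccr2 rose 7.66-fold. In markers shared with resident macrophages control 1 stood apart. Csf1r, the receptor of macrophage colony-stimulating factor, read 12.17, 12.06 and 12.14 against 8.92, 10.97 and 10.92 (adjusted P = 0.153). Adgre1, the antigen F4/80, read 12.38, 12.48 and 12.41 against 9.26, 11.40 and 11.42 (adjusted P = 0.195). The complement chain C1qa read 12.85, 12.87 and 12.37 against 9.25, 11.85 and 11.41 (adjusted P = 0.218). In each of these genes control 1 lay far below the other controls, and without it 9 of the 11 genes were called higher, against 2 without any of the allografts and 4 without control 2 or 3. The summed level of the list was 40491 to 43526 in the allografts against 3993 to 11426 in the controls.

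Genes of Kupffer cells, the resident macrophages of liver sinusoids, had a median difference of 1.05 with few calls. Timd4, Cd5l, Vsig4 and Folr2 differed by 1.47, 1.22, 1.05 and 0.58, none of them called. Marco, a scavenger receptor, rose from 12.51, 13.88 and 13.01 in the controls to 15.21, 15.52 and 15.77 in the allografts (5.17-fold, adjusted P = 0.0345), the only one of 7 to be called (0 to 2 when 1 array was left out). Clec4f, the most specific Kupffer cell gene, read 12.73, 12.43 and 12.53 against 11.57, 12.74 and 12.59, with overlapping groups (adjusted P = 0.671), and its sign turned when control 1 was left out (-0.10) or the arrays were scaled to the 75th percentile (-0.058). Cd163, a haemoglobin receptor, read 7.62, 7.33 and 7.98 in the allografts, below the controls at 8.05, 8.58 and 9.06 (adjusted P = 0.173). Dendritic cell genes were higher in 3 of 6 cases (1 to 3 when 1 array was left out), Ccr7, the receptor for migration to lymph nodes (3.22), Itgae (2.21) and Batf3 (1.80), while Xcr1 of cross-presenting cells differed by -0.29 (adjusted P = 0.585).

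Other leukocytes contributed fewer calls. Siglecf, a sialic acid receptor of eosinophils and some macrophages, rose at least 1.56-fold (adjusted P = 0.00106), while the eosinophil gene Prg2 differed by 1.23 (adjusted P = 0.285). None of the 10 neutrophil genes was called by limma, against 4 at an unadjusted P-value under 0.05 and 4 called higher with 75th percentile scaling. The granule gene Ngp read 6.92, 5.09 and 4.6 in the allografts and 3.11, 2.92 and 2.89 in the controls, of which none was above background, with allograft 1 highest (adjusted P = 0.0857). S100a8 and S100a9 overlapped between the groups. Of 7 B cell genes, Cd22 alone was higher (1.56). Prdm1 and Irf4, factors of plasma cells that activated T cells also use, rose at least 6.98-fold and at least 2.31-fold, and Jchain differed by 1.88 (adjusted P = 0.0647). The summed level of the B cell list overlapped between the groups, 510 to 660 in the allografts against 380 to 724 in the controls.

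**Figure D4:**
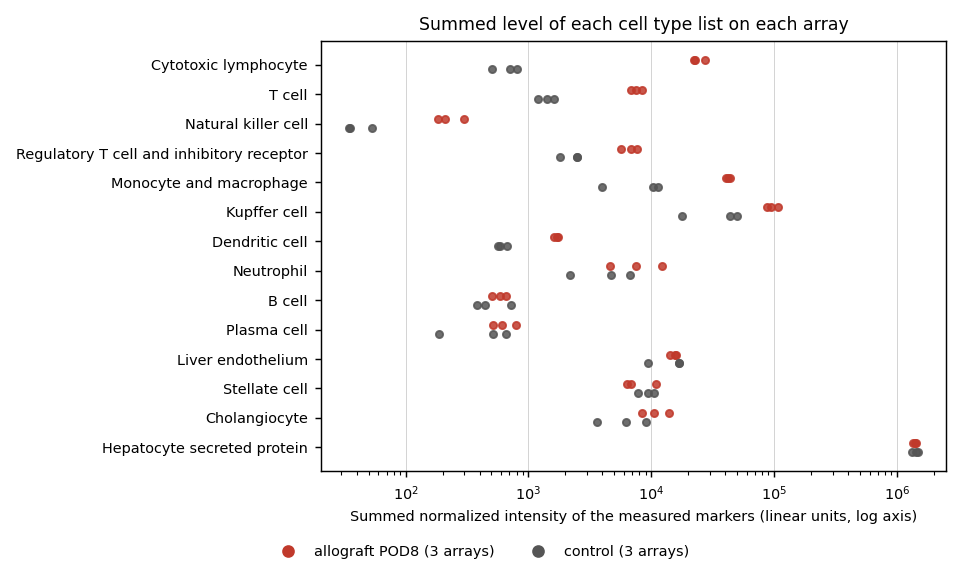
Summed normalized intensity (linear units, log axis) of the measured markers in each cell type list, 1 point per array. Cytotoxic, T cell, natural killer, inhibitory receptor, monocyte, Kupffer and dendritic cell sums do not overlap between allografts and controls, whereas neutrophil, B cell, plasma cell, endothelial, stellate, cholangiocyte and hepatocyte sums do. The sums add probes that are not on one scale, so bright probes weigh most and a sum need not hold for each marker. Clec4f of the Kupffer list, for example, overlaps between the groups.

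Genes of dividing cells rose in part. Mki67, the proliferation antigen Ki-67, read 9.42, 9.57 and 9.90 in the allografts and 7.45, 7.88 and 7.67 in the controls, a 3.9-fold difference (adjusted P = 0.00872). Of 24 mitosis genes 9 were higher (median 1.99), among them Nusap1 (2.28), the kinetochore motor Cenpe (2.14) and survivin, Birc5 (1.98). In 23 of the 24 every allograft lay above every control, against 2613 of the 13440 genes described and 15.5% of all named genes tested. Ccnb1 (cyclin B1) read 6.33, 6.47 and 6.74 against 0.79, 4.79 and 4.30 and Cdk1 read 7.27, 7.49 and 7.99 against 2.51, 5.83 and 5.77. Control 1 was the lowest in both, by over 3 log2 units, and neither passed (adjusted P = 0.175 and 0.171). Without control 1, 14 of the 24 were higher, against 2, 0 and 1 without allograft 1, 2 or 3 and 5 and 3 without control 2 or 3. With the arrays scaled to the 75th percentile, 22 of the 24 were higher. DNA replication genes were higher in 2 of 20 cases (0 to 4 when 1 array was left out, median 0.86), namely Cdc6 (2.31) and the helicase subunit Mcm4 (1.47), and in 9 under the other scaling, while Tk1 differed by -0.19 (adjusted P = 0.753).

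Glycolysis genes typical of leukocytes and other tissues than hepatocytes rose in 6 of 11 cases (1 to 7 when 1 array was left out, median 1.66). The hexokinases Hk3, Hk2 and Hk1, which hepatocytes hardly use, rose 8.82-fold, 5.54-fold and 3.15-fold, Pfkp rose 7.34-fold and the glucose transporter Slc2a3 5.25-fold. Ldha read 15.21, 15.08 and 15.11 against 14.95, 15.28 and 15.52, with overlapping groups. Among cell death and stress genes 7 of 22 were higher (0 to 8 when 1 array was left out, 0 without any 1 of the allografts, median 0.67). Among them were the stress factor Atf3 (3.02), the inflammatory caspases Casp1 (2.56) and Casp4 (1.94) with the necroptosis effector Mlkl (1.69), and Cdkn1a (2.47) and Pmaip1 (1.96) of apoptosis and the p53 response. Mdm2, Bbc3 and Gdf15, other p53 or stress targets, differed by 0.16, -0.27 and -0.21 with no call.

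Secreted hepatocyte proteins gave no call in either direction over 20 genes by limma with quantile normalization (0 higher and 3 lower at an unadjusted P-value under 0.05), with a median of -0.02. Albumin, Alb, read 17.82, 17.99 and 17.93 in the allografts and 17.93, 17.99 and 17.82 in the controls. Its 2 groups had the same 3 values in another order, because quantile normalization gives the brightest probes the values of their ranks, and scaled to the 75th percentile Alb was lower (-1.12, adjusted P = 0.0273). The whole list followed, with 10 of 20 lower and a median of -0.75 under that scaling (all genes 1024 of 13440 lower, median -0.19). The level of hepatocyte transcripts thus depended on the normalization. Acute phase genes likewise gave 0 higher and 0 lower of 25 (unadjusted 2 and 0), against 1 and 9 under the other scaling. Serum amyloid A, from its Saa1 probe, measured 18.05, 17.76 and 18.36 in the allografts and 18.15, 18.11 and 18.22 in the controls, near the top of the scale in both groups. Complement genes gave 0 and 0 of 22 (unadjusted 5 and 4), against 1 and 5 with a median of -0.49 under the other scaling. C4b read 12.78, 12.65 and 12.19 against 15.06, 12.85 and 15.74, where controls 1 and 3 stood far above the rest and control 2 beside the allografts (adjusted P = 0.218).

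Of 21 listed cytochrome P450 genes 1 was called, Cyp26a1, which breaks down retinoic acid, and scaled to the 75th percentile 1 was higher and 3 were lower. Cyp2u1, on the male-biased list, fell by 1.02. Cyp26a1 read 12.68, 14.40 and 13.30 in the allografts and 9.41, 8.99 and 9.57 in the controls, a 17.6-fold difference (not called without allograft 3, SE 0.47 log2, adjusted P = 0.0145), with allograft 2 the highest and over 3 log2 units between the groups. Cyp3a11, the main drug-metabolizing member, differed by 1.0 (adjusted P = 0.138) and Cyp2e1 by -0.74 (adjusted P = 0.106), and the median of the list was -0.11.

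Pericentral hepatocyte genes, which depend on Wnt signals from central vein endothelium, leaned lower. Slc1a2, a glutamate transporter, read 10.60, 10.46 and 10.38 in the allografts and 11.48, 11.30 and 11.41 in the controls and fell by 0.92 on the log2 scale (adjusted P = 0.0175). Axin2, the standard readout of Wnt signalling, read 4.21, 4.42 and 4.68 against 5.80, 5.22 and 5.64 and fell by 1.12 (adjusted P = 0.0481), and Gulo of vitamin C synthesis fell by 0.65 (adjusted P = 0.0474). The groups did not overlap for any of the 3. Lgr5, the receptor that enhances Wnt signals, read 6.55, 6.38 and 6.16 against 9.30, 8.04 and 7.63 (difference -1.96, adjusted P = 0.0788). Glutamine synthetase, Glul, which is confined to cells around the central vein, read 13.50, 13.00 and 13.72 against 15.05, 14.45 and 14.30 (difference -1.19, adjusted P = 0.0831), and the transcription factor Tbx3 differed by -1.60 (adjusted P = 0.0925). In all 3 of 12 were lower, with a median of -0.70. Every allograft lay below every control in 9 of 12, against 2870 of the 13440 genes described and 20.4% of all named genes tested. Scaled to the 75th percentile, 9 of 12 were lower, against 1024 of all 13440 genes. By limma 0 of the 12 were lower without any 1 of the allografts, and 4, 2 and 1 without control 1, 2 or 3. The periportal list gave 0 calls over 8 genes (unadjusted 2 higher and 0 lower), and its median of 0.30 turned to -0.18 under 75th percentile scaling, where the median of all genes was -0.19. Wnt2, a Wnt ligand of liver endothelium, fell by 1.14 (adjusted P = 0.0393), the only call among 17 endothelial genes, and Stab2, a scavenger receptor of sinusoidal endothelium, read 9.80, 9.57 and 9.30 against 9.28, 9.82 and 9.96 (adjusted P = 0.766).

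Male-biased liver genes were lower in 3 of 9 cases (median -0.90). By limma 0 were lower without allograft 2, allograft 3 or control 2, with medians of -0.51, -0.41 and -0.95. Since donors and recipients were male and the sex of the controls is not given, a difference in sex was not tested. Hsd3b5, a 3-ketosteroid reductase of male liver, read 11.11, 10.16 and 10.25 in the allografts and 12.68, 13.23 and 13.08 in the controls, a 5.6-fold lower level (adjusted P = 0.0189). Its near relative Hsd3b4 fell by 2.41, and the 2 probes may read each other's transcripts. Slc22a7, an organic anion transporter, read 10.13, 8.81 and 10.21 against 12.05, 12.20 and 12.10 (fell by 2.40, adjusted P = 0.0377), with allograft 2 the lowest. None of 7 female-biased genes was called by limma (unadjusted 2 higher and 0 lower). Among 20 hepatocyte transcription factors Nr1i3, the xenobiotic receptor CAR, fell by 1.33 (adjusted P = 0.0446), with a list median of -0.49, and 7 were lower under the other scaling. Hnf4a read 10.88, 10.96 and 11.05 against 10.84, 11.13 and 11.23 (adjusted P = 0.695). Slco1b2, an uptake transporter for bile acids, fell by 0.95 (adjusted P = 0.0394), the only call among 20 bile acid genes (1 higher and 4 lower under the other scaling), and Cyp7a1, the rate-limiting enzyme of bile acid synthesis, spread within both groups, 7.04, 5.63 and 8.87 against 7.88, 10.07 and 9.91 (adjusted P = 0.309). The clock output gene Dbp read 10.38, 12.21 and 13.42 against 13.00, 13.97 and 13.57, with the hour of collection not given.

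The 12 largest falls among called genes were led by Gm6460, a predicted gene, which read 2.92, 2.44 and 3.11 in the allografts and 5.81, 6.68 and 5.85 in the controls (fell by 3.29, adjusted P = 0.0094). All 3 of its allografts lay far below the controls, and 1 of them was above background. Several were genes best known from nerve cells, namely Mapt, the microtubule protein tau, which fell by 2.45, Rims1 of the synaptic active zone (-2.15), and Syt13, a synaptotagmin (-2.07). Kcnj16, a potassium channel subunit, read 4.11, 3.74 and 3.25 against 5.68, 6.24 and 6.0 (adjusted P = 0.0171), again without overlap. The matrix proteins Sparcl1 and Adamtsl2 fell by 2.09 and 2.30, and Cpsf4l fell by 2.08.

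Metabolic lists of hepatocytes gave few calls. Urea cycle and amino acid enzymes (21 genes), gluconeogenesis (10), cholesterol and fatty acid synthesis (21), fatty acid oxidation (25) and oxidative phosphorylation (18) had 0 calls by limma. At an unadjusted P-value under 0.05 they had 3, 4, 1, 11 and 0 genes, where all 13440 genes gave 2116 higher and 2201 lower. Of the 11 in fatty acid oxidation, 10 were lower and 1 was higher. Among these lists fatty acid oxidation had the lowest median, -0.39. In 14 of its 25 genes every allograft lay below every control, against 2870 of the 13440 genes described and 20.4% of all named genes tested. Scaled to the 75th percentile, 11 of the 25 and 4 of the 10 gluconeogenesis genes were lower, against 1024 of all 13440 genes. Of 15 antioxidant genes Gsta1, a glutathione transferase, rose by 1.29 (adjusted P = 0.0467), and Hmox1, which degrades haem, read 12.11, 12.13 and 12.11 against 9.98, 10.90 and 11.16 (adjusted P = 0.0736).

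Of 9 stellate cell genes 2 were lower. Reln, reelin, read 7.82, 7.02 and 7.76 in the allografts and 9.97, 9.69 and 9.91 in the controls, a 4.99-fold lower level without overlap (adjusted P = 0.0129). Lhx2, a factor that keeps stellate cells quiescent, fell by 1.99 (adjusted P = 0.0471). Acta2, the smooth muscle actin of activated stellate cells, read 11.22, 11.29 and 11.06 against 9.12, 10.15 and 10.39 (adjusted P = 0.109), and the median of the 9 genes was -0.65, with 0 to 3 lower when 1 array was left out. Matrix genes were higher in 3 of 30 cases (1 to 3 when 1 array was left out), and these were the collagenase Mmp13 (at least 6.99-fold), thrombospondin Thbs1 (at least 3.2-fold) and the macrophage elastase Mmp12 (at least 1.95-fold). The fibrillar collagen Col1a1 read 9.72, 9.33 and 11.29 against 10.31, 10.32 and 10.53, with overlapping groups (adjusted P = 0.78), and turned to 0.12 without allograft 2. Bile duct genes gave 0 calls over 9 by limma (unadjusted 0 higher and 1 lower), and Krt19, their keratin, read 7.01, 8.46 and 6.83 against 6.88, 7.25 and 8.44 (adjusted P = 0.94).

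**Figure D5:**
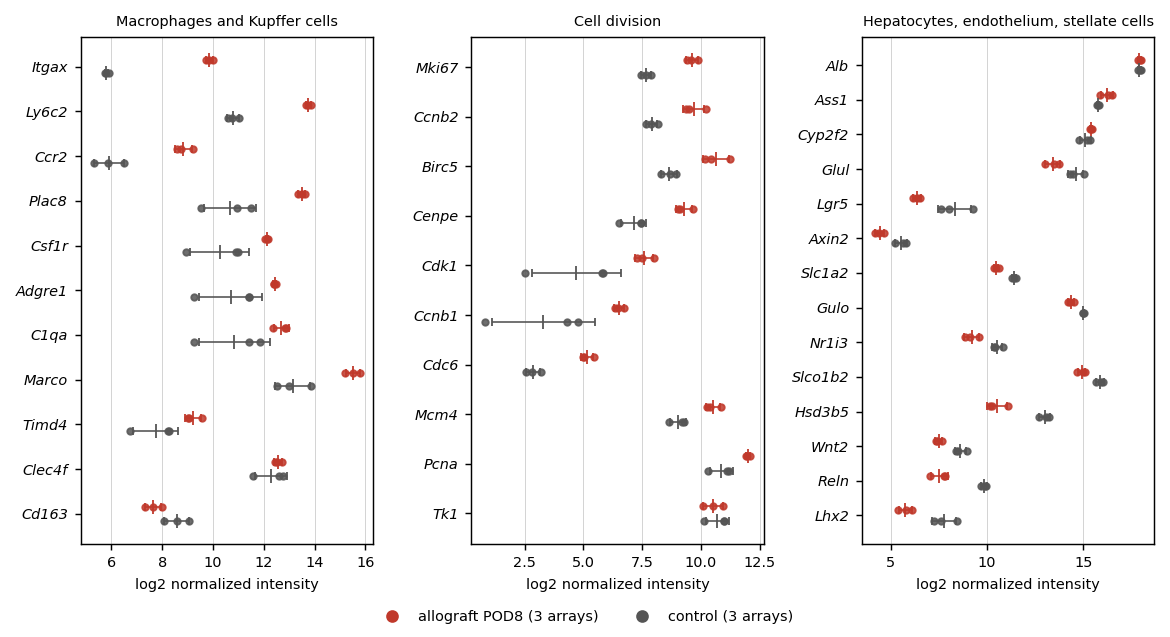
Level per array (log2 normalized intensity) of macrophage and Kupffer cell genes, cell division genes, and genes of hepatocytes, endothelium and stellate cells; vertical ticks are group means and bars the SD of 3 arrays. Control 1 stands apart at the low end for Csf1r, Adgre1, C1qa, Cdk1 and Ccnb1. The genes plotted from Glul down lie lower in the allografts, while Alb overlaps. The plotted genes were picked and do not stand for their lists. In those, 3 of 12 pericentral, 2 of 9 stellate and 3 of 9 male-biased genes were called lower.

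The 3 other hepatic allografts of the series, taken at POD5 from the same strain combination, were compared with the POD8 allografts directly. Limma called 0 of 41165 probes, against 2441 probes higher and 2832 lower at POD8 at an unadjusted P-value under 0.05. Values of named genes gave POD8 minus POD5 differences of 0.02 for Cd8a, -0.36 for Gzmb and 0.39 for Ifng, with adjusted P-values of 0.977, 0.38 and 0.611. Mki67 differed by -0.91 (adjusted P = 0.264) and Cyp26a1 by 1.96 (adjusted P = 0.254). With 3 arrays a side an exact permutation test of a single gene can give no P-value below 0.10, and a missed threshold does not show that POD5 and POD8 were alike.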

How the data were processed

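Total RNA of 15 mouse samples was hybridized by the study to single-colour (Cy3) Agilent arrays, and 6 of them are compared here. The authors deposited scanner output per array, as intensity values from Feature Extraction 10.5.1.1, whose processed signal is background-corrected and not normalized between arrays, and the headers name mm9. From the processed intensity, control and outlier spots were left out, spots of 1 probe were averaged, and log2 values were quantile normalized over the 6 arrays. Arrays have no read depth, so their number limits the precision. Symbols came from RefSeq accessions (GRCm38.p6, names only), which matched 26690 of 41174 probes (64.8%), and a gene was read from its brightest probe. A probe was well above background on an array when at least 0.5 of its spots were marked so by Feature Extraction, and a gene was described when this held on all 3 arrays of a group. Where no control array was above background, a fold is given as "at least", against the lowest signal among probes well above background on each control array.

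Groups were compared with limma 3.58.1 (lmFit, eBayes) in R 4.3.3, with the packages jsonlite 2.0.0 and data.table (version 1.17.8), and P-values were adjusted by Benjamini-Hochberg over all probes. Python 3.11.15 with pandas 2.3.3 read promoters, and matplotlib 3.10.9 drew the plots. On simulated data of 41157 probes the fit called 72 of 100 probes changed by 3 and 7 of 100 changed by 1 on the log2 scale, with 2 unchanged probes called. Named genes were the 12 largest calls in each direction without overlap, up to 4 called members of each list (or its 2 brightest members where none was called) and defining markers. Some genes that this rule names are not reported here, and genes named beyond it were picked after their values were seen. The members and the 46 lists (743 names) were chosen with earlier results of these data known. Alternatives were 75th percentile scaling, quantile normalization over the 9 liver arrays, normexp with an offset of 50 (on median signals), other probe filters, a trended prior, Bonferroni, the methods' t-test and fold change statistic, replicate and slide blocks, and leaving out each array. Replicate numbers did not pair the arrays. The 6 heart arrays were not used.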

Additional observations from a re-analysis of the deposited data

How the results depend on the processing

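Against 846 higher and 321 lower genes, no alternative called any of them the other way. The counts were 1364 and 1024 with 75th percentile scaling, 1061 and 495 with normexp, 1190 and 625 over probes above background only, 770 and 189 with a trended prior, 25 and 0 after Bonferroni, and 1156 and 542 in 1 fit with the POD5 arrays. The methods' t-test gave 1878 and 1923 unadjusted, 345 and 116 after Benjamini-Hochberg and 6 and 0 after Bonferroni. The methods' fold change statistic gave 180 and 7 after Bonferroni. These are counts of genes described here, each by its brightest probe, whereas the study converted all its significant probes to genes, so they are not its counts. Slide as a fixed block gave 0 and 0 by limma (1979 and 2385 unadjusted), which keeps only the slide with 2 arrays of each group. Slide as a random block, added after seeing the data together with the values within the shared slide, gave 997 and 525. Leaving out 1 array gave 175 to 1047 higher and 11 to 446 lower genes. The array numbers did not pair allografts with controls (correlations of 0.0037, 0.055 and 0.0093 between deviations of equal number), and a fit with the replicate block called 0 and 0 genes by limma (1922 and 1979 unadjusted). POD8 against POD5 stayed at 0 except for 1 higher gene with 75th percentile scaling and 0 to 1 higher gene when 1 array was left out (1 without POD5 allograft 3).

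Of 131 named genes, 114 kept their direction under every alternative, including all 102 that were called, and Alb, at 0 with quantile normalization, ranged from -1.12 to 0.085 over the alternatives. The other genes, none of them called with quantile normalization, changed sign as follows, and the cause was not tested. With 75th percentile scaling Ass1 was at -0.14, Atp5b at -0.38, C3 at -1.11 (adjusted P = 0.0293, limma), Cfb at -0.55, Clec4f at -0.058, Cyp2f2 at -0.21, Cyp3a41a at -0.47, Fbp1 at -0.55 and Gnmt at -0.60. The fold change statistic put Clec4f at -0.058, Cyp3a41a at -0.072 and Msln at 0.42. The slide block put Hp at 0.10, Krt19 at 0.67 and Stab2 at 0.13, and the random block put Krt19 at 0.047. Leaving out 1 array gave ranges of -0.00953 to 0.42 for Cfb, -0.10 to 0.48 for Clec4f, -0.87 to 0.12 for Col1a1, -0.030 to 0.24 for Cyp3a41a, -0.15 to 0.048 for Hp, -0.60 to 0.37 for Krt19, -0.47 to 0.62 for Msln, -0.26 to 0.049 for Saa1, -0.011 to 1.14 for Scd1 and -0.33 to 0.00581 for Stab2. Among the list counts 616 stayed within 1.5 times and 212 did not. Probes not above background have no measured level, which limits the transcripts of sparse cells in the controls.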

Other observations

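Outside the 46 lists lay 678 of the 846 higher and 309 of the 321 lower genes, and the single genes below were picked after their values were seen, so they stand for no group. Slamf7, a receptor of lymphocytes and myeloid cells, rose at least 18.6-fold, and Tnfrsf9 (4-1BB), a costimulatory receptor of T cells, at least 7.96-fold. Slamf8 read 10.76, 11.01 and 10.66 in the allografts and 4.74, 6.36 and 6.14 in the controls (adjusted P = 0.00811 by limma). The beta chain of the interleukin 2 receptor, Il2rb, rose 11.4-fold. The transcription factor gene Batf rose by 3.22 on the log2 scale, Egr2 by 4.51 and Stat4 by 4.19, and the zinc finger gene Gfi1 rose at least 3.76-fold. Vdr, the vitamin D receptor, was above background on all 3 allografts and on none of the controls, and rose at least 9.38-fold. Acod1, the itaconate enzyme of activated macrophages, read 9.96, 10.10 and 10.17 against 5.34, 6.67 and 6.34 (adjusted P = 0.00819), and Ch25h, which makes 25-hydroxycholesterol, rose by 3.49. The inducible heat shock genes Hspa1a and Hspa1b, whose probes may read each other, rose by 4.04 and 3.73, with values spread among the allografts (10.71, 9.73 and 8.92 for Hspa1a).

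Nkd1, a feedback target of Wnt signalling, read 6.49, 6.06 and 6.64 in the allografts and 7.93, 8.05 and 8.10 in the controls (adjusted P = 0.0133), and Sp5, Tnfrsf19 and Porcn fell by 1.62, 1.39 and 1.08. The matrix genes Mfap4, Ecm1 and Islr fell by 1.5, 1.73 and 1.92, and the hepatocyte genes Fetub and Creb3l3 by 1.09 and 0.90. Differences below that of every called gene were measured in 2 genes that were not called. Moxd1, a monooxygenase-like gene outside the lists, read 3.31, 1.75 and 3.75 against 6.23, 9.59 and 9.39, a difference of -5.47 that did not pass (adjusted P = 0.0545), and Fgf21 of the fatty acid oxidation list, a hepatic hormone of fasting and stress, read 3.34, 0.74 and 2.57 against 6.96, 5.58 and 4.15 (adjusted P = 0.128). Calcb, the peptide gene CGRP-beta, was above background on the 3 POD8 allografts and on none of the controls (5.43, 5.62 and 5.25 against 1.24, 1.15 and 1.03), and its POD8 minus POD5 difference was 4.71 (adjusted P = 0.106).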
